A study of Homo sapiens with 6 samples.

Results

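KYSE150 is a long-established cell line from a human squamous cancer of the oesophagus. In stably transfected clones of this line, expression was followed for 10 genes, mainly of the interleukin 1 and interleukin 6 systems. They were chosen by name: IL1A, IL1B, IL36G and IL1RN of the interleukin 1 family, IL6, IL11, LIF and the receptor gene IL6ST of the interleukin 6 system, and IL24 and CSF2, each found by its Entrez ID among 40448 gene IDs. In 3 clones (1, 6 and 17) a vector expressed human NCCRP1, the gene of an F-box-associated domain protein, and 3 mock clones (1, 4 and 5) carried pIRES2-EGFP without it. Each clone was grown from stable transfection of the same line and gave 1 library of ribosomal-RNA-depleted total RNA. The spread between libraries therefore joins differences between clones with those of library preparation, read number and sequencing run, which cannot be separated here. The limma p-values rest on this joint spread, moderated over all tested genes. NCCRP1 clone 1 and mock clones 1 and 4 were read in sequencing run 15, and NCCRP1 clones 6 and 17 and mock clone 5 in run 14.

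Interleukin 1 family cytokines are made by epithelial cells on injury or microbial contact. IL-1 alpha and IL-1 beta bind the same receptor and switch on NF-kB, the product of IL1RN occupies that receptor without signalling, and IL-36 gamma acts through a related receptor in squamous epithelia. IL-6, IL-11 and LIF each bind a different receptor chain and share gp130, the product of IL6ST, which signals through JAK kinases to STAT3. IL6 and LIF are themselves NF-kB targets in many cells, a link between the families. IL-24 belongs to the IL-10 family and CSF2 encodes GM-CSF, and both are secreted by activated epithelial cells.

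The libraries held 12477 to 12789 genes above 0 in NCCRP1 clones and 12603 to 12821 in mock clones, and they correlated with each other across genes with r between 0.971 and 0.99. Depth was estimated only roughly, from the 23.4% to 33.1% of low microRNA values per library that lay on whole-read steps, at 14570000 to 18090000 reads in NCCRP1 clones and 12290000 to 15970000 in mock clones. All levels are log2 RPKM (reads per kilobase of transcript, scaled to library depth) as deposited, so they can be compared between genes per length, and a gene under 1 RPKM was listed at 0. NCCRP1 stood at 6.19, 8.07 and 6.71 in NCCRP1 clones 1, 6 and 17 and was listed at 0 in all 3 mock clones. Of 8 squamous epithelial markers, all were tested, and 7 had a lower and 1 a higher mean in NCCRP1 clones. Of the 8, 2 were lower at an unadjusted p under 0.05, against 3.79% of all tested genes. These were KRT14, at 0.338 times the mock level, and PKP1, at 0.804 times. PKP1 alone was lower without overlap between the groups, against 7.05% of all tested genes. SOX2 was at 1.81, 0 and 2.65 in NCCRP1 clones 1, 6 and 17 and at 2.83, 2.2 and 3.03 in mock clones 1, 4 and 5. The summed level of the 8 markers was 928 to 2160 RPKM in NCCRP1 clones and 1470 to 1860 RPKM in mock clones. KRT5 had the highest level of the 8 in every library, so this sum says little about the others. Of 8 monocyte and macrophage markers, 7, among them PTPRC, CD14 and LYZ, were listed at 0 in every library, and CSF1R made up the summed 3.98 to 4.18 RPKM in NCCRP1 clones and 4.34 to 5.38 RPKM in mock clones. Of 6 fibroblast markers COL1A1 alone was above 0 (2.49 to 5.62 RPKM in NCCRP1 and 3.5 to 5.96 RPKM in mock clones). Lymphocyte and endothelial markers were at 0 apart from NKG7 and CDH5 in NCCRP1 clone 6. The part of the squamous markers in the results below was not tested. In bulk RNA, fewer expressing cells and less RNA per cell cannot be told apart.

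Among the 10 genes, 6 were above 0 in every library, IL1RN was above 0 in 4 libraries, and IL36G, IL24 and CSF2 were listed at 0 in all 6. IL6 had the clearest difference and stood 3.83-fold higher in NCCRP1 clones. IL1B, IL1A and LIF were 2.18-fold, 2.03-fold and 1.8-fold higher, IL6ST was 1.29-fold higher, and IL11 went the other way, at 0.661 times the mock level. None of the 7 tested genes passed limma's test adjusted over all 12737 tested genes at 0.05, where 0.102% of genes passed (0.0707% higher and 0.0314% lower). At an unadjusted p under 0.05, 4 of the 7 were higher (IL6, IL1B, LIF and IL1A) and 0 lower, against 3.54% and 3.79% of all tested genes (7.33% in either direction). The groups did not overlap for IL6, IL1B and IL1RN, all higher in NCCRP1 clones, against 5.71% of tested genes higher and 7.05% lower without overlap (12.8% in all), although IL1RN passed the filter on low values mainly through the NCCRP1 clones. The median difference of the 6 genes above 0 in every library was 0.94 on the log2 scale, beside -0.014 over all genes above 0 in every library.

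**Figure D1:**
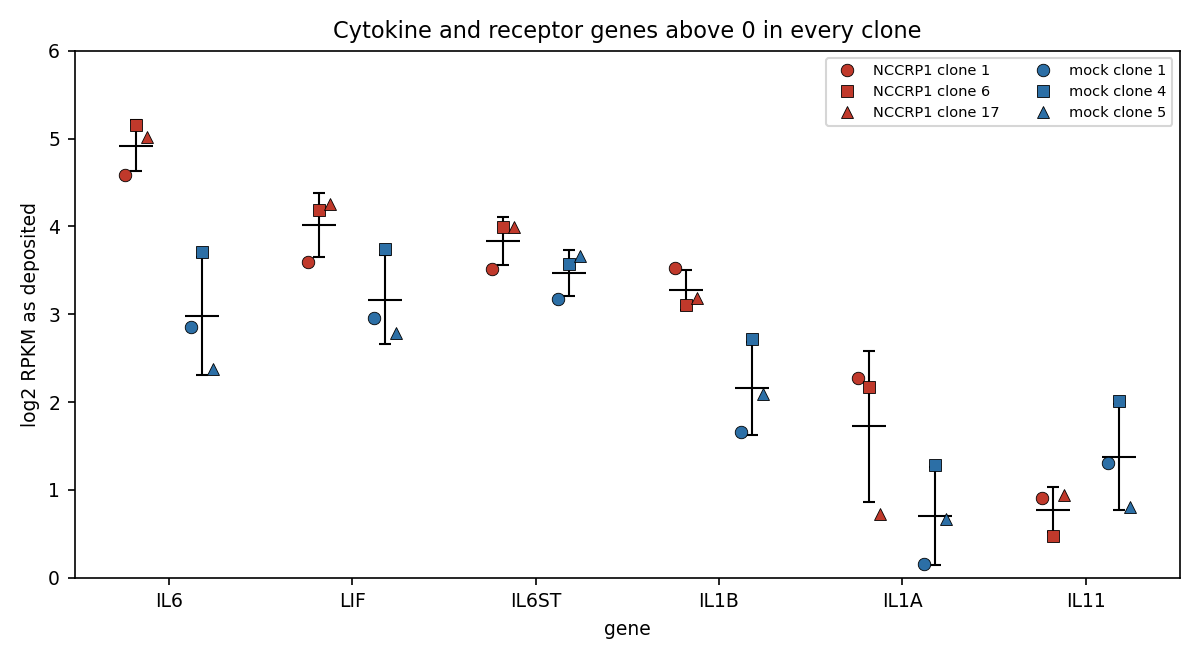
Log2 RPKM (vertical axis) of the 6 genes above 0 in every library, with 1 point per clone, NCCRP1 clones in red left of mock clones in blue, and bars for mean ± SD (n = 3). The IL6 and IL1B points do not overlap between groups, and mock clone 4 (blue squares) is the highest mock clone for 5 of the 6 genes.

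The promoters of IL6 and IL1B, which had the lowest p-values, and of IL11, which differed in the opposite direction, are shown for the sequences they carry just before their start sites. Each line gives the 250 bases before the RefSeq start (GRCh38.p14), 5′ to 3′ on the gene's strand, with matches to a pair of motifs in capitals.
IL6, chr7:22726950-22727199, plus strand: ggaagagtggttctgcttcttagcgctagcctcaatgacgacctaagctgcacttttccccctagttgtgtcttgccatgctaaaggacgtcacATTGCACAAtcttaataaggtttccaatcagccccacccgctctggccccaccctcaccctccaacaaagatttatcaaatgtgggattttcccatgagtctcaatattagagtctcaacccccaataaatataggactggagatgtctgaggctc
IL1B, chr2:112836780-112837029, minus strand: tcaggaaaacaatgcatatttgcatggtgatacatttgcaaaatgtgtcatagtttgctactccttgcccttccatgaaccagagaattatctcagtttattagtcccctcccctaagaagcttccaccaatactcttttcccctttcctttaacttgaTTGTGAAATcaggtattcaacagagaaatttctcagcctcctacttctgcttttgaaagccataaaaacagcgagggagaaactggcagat
IL11, chr19:55370464-55370713, minus strand: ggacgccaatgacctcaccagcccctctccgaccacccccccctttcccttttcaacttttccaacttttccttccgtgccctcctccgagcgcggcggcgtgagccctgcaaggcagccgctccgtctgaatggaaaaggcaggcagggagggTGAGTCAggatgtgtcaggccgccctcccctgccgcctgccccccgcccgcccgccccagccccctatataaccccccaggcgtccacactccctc
The motifs were a C/EBP-like TTNNGNAAT and an AP-1-like TGANTCA, each searched on both strands. The IL6 window held a C/EBP-like match beginning 156 bases before the start and no other match. The IL1B window likewise held a C/EBP-like match alone, beginning 91 bases before the start. In the IL11 window the sole match was AP-1-like, beginning 96 bases before the start. Among 22198 single windows of protein-coding genes, 7.88% held the C/EBP-like and 5.36% the AP-1-like motif. Over the 9 genes with a window in the table, the C/EBP-like motif was found for 4 (IL6, IL1A, IL1B and IL1RN) and the AP-1-like for 3 (IL1A, IL1RN and IL11). These are counts of genes with a match in any of their windows, 12 in all, of which IL1A had 2 and IL1RN 3, so they cannot be read against the shares of single windows. A match is a stretch of letters and not a measured binding site.

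IL6 encodes a secreted cytokine that drives the acute-phase response. Its level was 4.59, 5.15 and 5.02 in NCCRP1 clones 1, 6 and 17, or 24.2, 35.5 and 32.4 RPKM, against 2.86, 3.71 and 2.38 in mock clones 1, 4 and 5, or 7.27, 13 and 5.21 RPKM. Every NCCRP1 clone lay above every mock clone, and the mock clones were more spread out. Means stood at 4.92 ± 0.29 in NCCRP1 and 2.98 ± 0.67 in mock clones (SD, n = 3 each), a log2 difference of 1.94 (SE 0.31, unadjusted p = 0.00012, limma adjusted p = 0.071). By p it ranked 21 among all tested genes, and 11 genes had a larger positive difference, 4 of them above 0 in every library. Within run 15 the difference was 1.31 and within run 14 it was 2.7. The exact permutation test of 3 against 3 clones gave p = 0.1, two-sided, which is the smallest value this design allows. The call turned on mock clone 4: without it the difference was 2.3 and IL6 passed (limma adjusted p = 0.00173), whereas without each of the other clones it missed, with limma adjusted p up to 0.343 and differences down to 1.64. NCCRP1 clone 6 had the highest level of both NCCRP1 and IL6 and clone 1 the lowest of both, an order over 3 clones that was not tested. Other genes of the set differed: IL1B was highest in clone 1 and lowest in clone 6. IL1A was also highest in clone 1, and LIF and IL11 were highest in clone 17. IL1RN, near the 1 RPKM floor, had the same order as IL6, and IL6ST was lowest in clone 1 and equal in clones 6 and 17.

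LIF encodes leukaemia inhibitory factor, which signals through the LIF receptor and gp130. It stood at 3.6, 4.19 and 4.26 in NCCRP1 clones 1, 6 and 17 and at 2.96, 3.74 and 2.79 in mock clones 1, 4 and 5. NCCRP1 clones 6 and 17 were above every mock clone, while clone 1 lay below mock clone 4, so the groups overlapped. The means were 4.02 ± 0.36 in NCCRP1 and 3.16 ± 0.51 in mock clones (SD, n = 3 each), with a difference of 0.85 (SE 0.26, limma adjusted p = 0.406). The difference was 0.25 within run 15 and 1.43 within run 14.

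IL11 encodes a further gp130 cytokine, known for its part in stroma and fibrosis. Its level was low throughout, at 0.91, 0.48 and 0.94 in NCCRP1 clones 1, 6 and 17, while mock clones 1, 4 and 5 had 1.31, 2.01 and 0.81. Mock clone 5 lay below NCCRP1 clones 1 and 17, so the groups overlapped, and mock clone 4 stood apart at the top. The difference of -0.6 (SE 0.3, limma adjusted p = 0.724) was -0.28 without mock clone 4, -0.88 without mock clone 5, and -0.75 within run 15 against -0.1 within run 14. IL11 values rested on about 50 to 116 reads per library by the microRNA depth and a transcript of 2.28 kb, those of IL6 on about 127 to 859.

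IL6ST encodes gp130, the signalling subunit that IL-6, IL-11 and LIF share. Its level was 3.52, 3.99 and 3.99 in NCCRP1 clones 1, 6 and 17 and 3.17, 3.57 and 3.66 in mock clones 1, 4 and 5. NCCRP1 clone 1 lay below mock clones 4 and 5, and the difference of 0.37 (SE 0.19) did not pass (limma adjusted p = 0.736). It was 0.22 without mock clone 1, 0.24 with the sequencing run as a term, 0.16 within run 15 and 0.33 within run 14.

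IL1B encodes the secreted agonist IL-1 beta, which needs cleavage by caspase 1. It was at 3.53, 3.11 and 3.19 in NCCRP1 clones 1, 6 and 17 and at 1.66, 2.72 and 2.09 in mock clones 1, 4 and 5. Every NCCRP1 clone was above every mock clone, with mock clone 4 the nearest. The means were 3.28 ± 0.22 in NCCRP1 and 2.16 ± 0.53 in mock clones (SD, n = 3 each), a difference of 1.12 (SE 0.26, unadjusted p = 0.0011, limma adjusted p = 0.203), and the difference was 1.34 within run 15 and 1.06 within run 14. Without mock clone 4 the limma adjusted p was 0.0507, the lowest of the clones left out in turn, where it reached 0.519.

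IL1A encodes IL-1 alpha, which is active as a precursor and is released by damaged epithelial cells. Levels were 2.27, 2.17 and 0.73 in NCCRP1 clones 1, 6 and 17 and 0.16, 1.28 and 0.67 in mock clones 1, 4 and 5. NCCRP1 clones 1 and 6 were the highest of all, but clone 17 lay among the mock clones. The means of 1.72 ± 0.86 in NCCRP1 and 0.7 ± 0.56 in mock clones (SD, n = 3 each) differed by 1.02 (SE 0.43, limma adjusted p = 0.64), and by 1.52 without NCCRP1 clone 17 (limma adjusted p = 0.232). The difference was 1.55 within run 15 and 0.78 within run 14.

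IL1RN, the receptor antagonist gene, was near the 1 RPKM floor. It was at 0.31, 0.58 and 0.41 in NCCRP1 clones 1, 6 and 17, against 0.08 in mock clone 1 and a listed 0 in mock clones 4 and 5. The groups did not overlap, yet all values above 0 lay between 1.06 and 1.49 RPKM, and no fold is given because of the listed 0. The difference of 0.4 (limma adjusted p = 0.731) was 0.27 within run 15 and 0.49 within run 14.

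IL36G, IL24 and CSF2 were listed at 0 in every NCCRP1 clone and every mock clone. By the estimated depths, 1 RPKM would be about 14.7 to 21.6 reads for IL36G, 22.4 to 32.9 for IL24 and 9.67 to 14.2 for CSF2. Some abundant genes were also listed at 0, so these entries do not show that the transcripts were absent. On chromosome 2 the IL-1 genes run in RefSeq order from IL1A and IL1B through IL37, IL36G, IL36A, IL36B, IL36RN and IL1F10 to IL1RN. The pair at one end was above 0 in all 6 libraries and IL1RN at the other in 4, while between them IL36RN alone was above 0, in NCCRP1 clone 6. The 30 nearest expressed protein-coding genes of each of the 10 genes had median differences between -0.07 and 0.04.

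**Figure D2:**
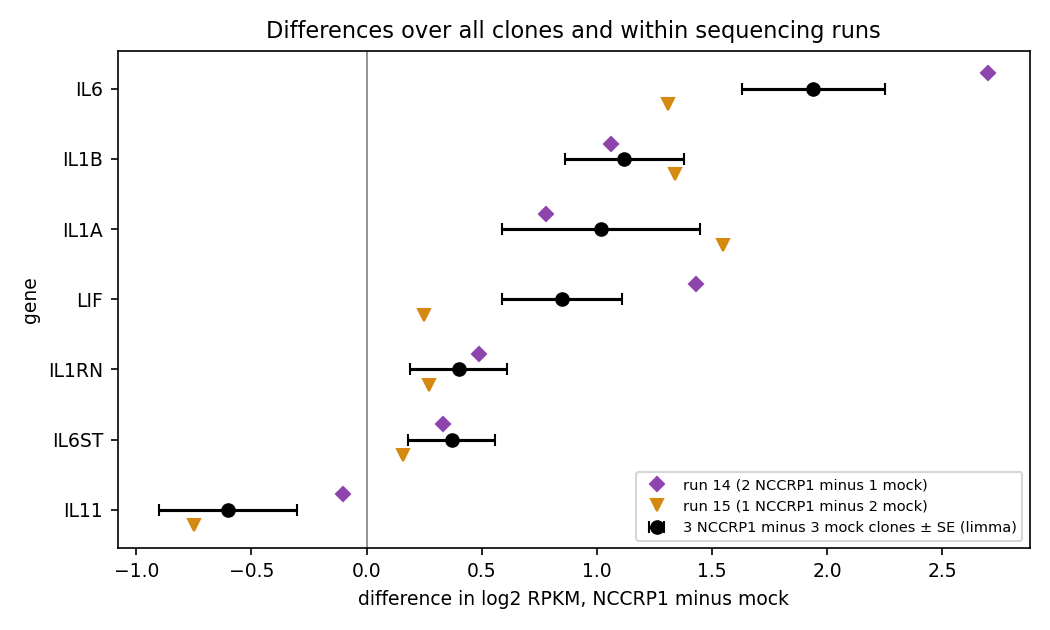
Difference in log2 RPKM, NCCRP1 minus mock (horizontal axis), for the 7 tested genes, with black points and bars for the value over all 6 clones ± SE and coloured points for the values within runs. IL6 lies furthest right at 1.94, with 1.31 within run 15 and 2.7 within run 14, and IL11 alone lies left of 0.

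The order of levels also differed between the groups. In NCCRP1 clones IL6 had the highest mean, above LIF, IL6ST, IL1B, IL1A, IL11 and IL1RN in that order. In mock clones IL6ST (3.47 ± 0.26) came first, then LIF, IL6, IL1B, IL11, IL1A and IL1RN, and there the means of IL6ST, LIF and IL6 were closer together than the larger of their SDs. In NCCRP1 clones the same held for LIF and IL6ST. Within single clones IL6 exceeded LIF by 1.0, 0.96 and 0.76 log2 units in NCCRP1 clones 1, 6 and 17, and differed from it by -0.1, -0.03 and -0.41 in mock clones 1, 4 and 5. IL6 exceeded IL6ST by 1.07, 1.16 and 1.02 in the NCCRP1 clones, against -0.3, 0.14 and -1.28 in the mock clones. IL11 minus LIF was -2.69, -3.72 and -3.31 in NCCRP1 clones and -1.65, -1.73 and -1.98 in mock clones, so the distance between these gp130 ligands was larger in every NCCRP1 clone. The level of IL1B above IL1A was 1.26, 0.94 and 2.47 in NCCRP1 clones and 1.51, 1.45 and 1.42 in mock clones, which overlapped. IL6 minus IL1B also overlapped, at 1.06, 2.04 and 1.82 in NCCRP1 clones and 1.2, 0.98 and 0.29 in mock clones. So did LIF minus IL6ST, at 0.07, 0.2 and 0.26 in NCCRP1 clones and -0.2, 0.17 and -0.87 in mock clones. The level of IL1B above IL1RN, with its listed 0 values, was 3.22, 2.54 and 2.79 in NCCRP1 clones and 1.58, 2.72 and 2.09 in mock clones, again with overlap. These pairs were chosen after their values were seen and were not tested.

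**Figure D3:**
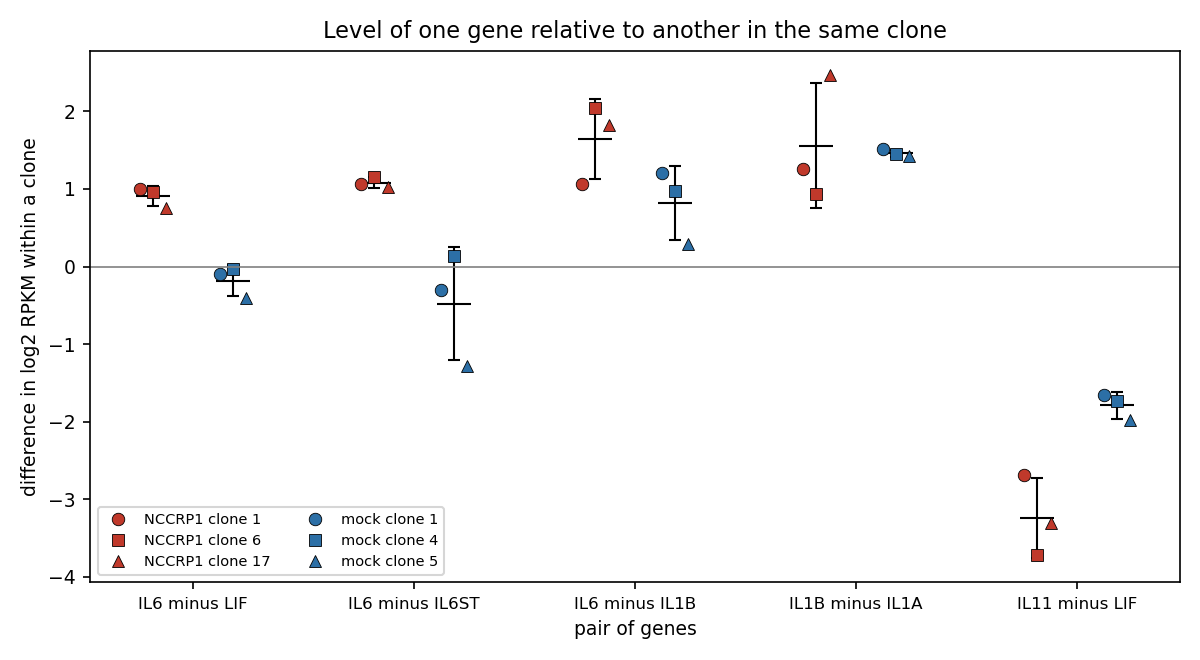
Difference in log2 RPKM between a pair of genes in the same clone (vertical axis), with 1 point per clone, NCCRP1 clones in red left of mock clones in blue, and bars for mean ± SD (n = 3). IL6 relative to LIF averages 0.9 in NCCRP1 and -0.18 in mock clones, and IL11 relative to LIF averages -3.24 in NCCRP1 and -1.79 in mock clones.

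The mock clones also differed among themselves. Mock clone 4 was the highest mock clone for IL6, LIF, IL1B, IL1A and IL11, 5 of the 6 genes above 0 in every library, and mock clone 5 was the highest for IL6ST. Mock clone 1 was the lowest for 3 of the 6 genes and mock clone 5 for the other 3. For IL6 this left mock clone 4, at 13 RPKM, between NCCRP1 clone 1 (24.2 RPKM) and mock clone 1 (7.27 RPKM). IL1RN, outside these 6 genes, was above 0 in mock clone 1 alone of the mock clones. How often mock clone 4 was the highest mock clone over all tested genes was not counted.

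The other genes of these pathways were read from 9 lists, in which 0 genes passed over all tested genes in either direction. The counts below stand beside 3.54% of all tested genes higher and 3.79% lower at an unadjusted p under 0.05, and 5.71% higher and 7.05% lower without overlap. Among IL-1 family ligands, IL18 was the other tested gene (difference 0.26), and IL33, IL37, IL36A, IL36B and IL1F10 were listed at 0 in all libraries. Of 16 IL-1 receptor and proximal signalling genes 10 were tested, with 5 higher and 5 lower means, and 1 had an unadjusted p under 0.05. That gene was IRAK2, a kinase-like adaptor below the IL-1 receptor, at 3.24, 3.47 and 2.93 in NCCRP1 clones 1, 6 and 17 and 2.55, 3.16 and 2.42 in mock clones 1, 4 and 5 (limma adjusted p = 0.664). IL1RAP, the accessory chain of the receptor, had a difference of 0.3 (limma adjusted p = 0.807). Its groups did not overlap but nearly touched, since NCCRP1 clone 6 and mock clone 5 were both at 2.31 after rounding. IRAK4, the kinase that couples the receptor to IRAK1, also had a difference of 0.3. The signalling receptor gene IL1R1 was near the floor and was listed at 0 in NCCRP1 clone 1 and in mock clones 1 and 5.

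Among 10 tested processing and export genes, CASP1 and CASP4 were the 2 that had higher means with no overlap between groups, and CASP5 was listed at 0. CASP1, which cleaves the precursors of IL-1 beta and IL-18, was at 0.56, 1.4 and 1.53 in NCCRP1 clones 1, 6 and 17, against listed 0 values in mock clones 1 and 4 and 0.22 in mock clone 5 (limma adjusted p = 0.268), so it met the filter on low values mainly through the NCCRP1 clones. CASP4, a sensor of cytosolic lipopolysaccharide, was at 4.39, 5.3 and 5.19 in NCCRP1 and 3.71, 4.18 and 4.08 in mock clones, a 1.95-fold higher level (difference 0.97, SE 0.23, limma adjusted p = 0.26). AIM2, a sensor of cytosolic DNA, had a difference of -0.35 and was listed at 0 in NCCRP1 clone 1.

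Of the IL-6 family ligands outside the 10 genes, CLCF1, which signals through the CNTF receptor complex, had a difference of 0.26, and CTF1, the cardiotrophin gene, one of 0.05. The receptors and kinases had a median difference of 0.13 over 12 tested genes, 8 higher and 4 lower, with none at an unadjusted p under 0.05. STAT3 and JAK1 were 1.2-fold and 1.18-fold higher (limma adjusted p of 0.752 and 0.771), both without overlap. IL6R, which encodes the IL-6 binding chain, was low at 1.3, 1.66 and 1.05 in NCCRP1 and 1.39, 0.89 and 1.45 in mock clones, and JAK2 was listed at 0 throughout.

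In the list of STAT3 targets and feedback genes, 12 of 15 tested genes had a higher mean, 5 of them at an unadjusted p under 0.05 (3.54% over all tested genes) and 3 without overlap (5.71% over all), with a median difference of 0.14. ICAM1, a leukocyte adhesion molecule that NF-kB also induces, was at 5.94, 7.0 and 6.64 in NCCRP1 and 5.3, 5.85 and 5.16 in mock clones (difference 1.09, SE 0.27, limma adjusted p = 0.293). SOCS2, a feedback inhibitor of cytokine receptors, was 1.48-fold higher (difference 0.57, limma adjusted p = 0.455). SERPINA3, the acute-phase antichymotrypsin, was at 1.77, 3.93 and 3.79 in NCCRP1 and 0.71, 2.12 and 0.73 in mock clones, with clone 1 of the NCCRP1 group below mock clone 4 (difference 1.98, SE 0.69, limma adjusted p = 0.583). SOCS3, the main brake on gp130 and chosen here after its value was seen, was at 4.27, 4.94 and 5.01 in NCCRP1 and 4.19, 4.59 and 3.85 in mock clones (limma adjusted p = 0.659).

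For the IL-20 subfamily, IL19, IL20, IL22, IL26 and IL10 were listed at 0 like IL24, while receptor chains were present: IL20RB had a difference of -0.42, IL22RA1 of 0.24 and IL10RB of 0.1. Among the colony-stimulating factors CSF1 was above 0, at 3.91, 4.39 and 4.61 in NCCRP1 and 3.64, 3.95 and 3.96 in mock clones (limma adjusted p = 0.639), CSF1R was 0.825 times the mock level without overlap (limma adjusted p = 0.83), and CSF3 and CSF2RB were listed at 0.

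**Figure D4:**
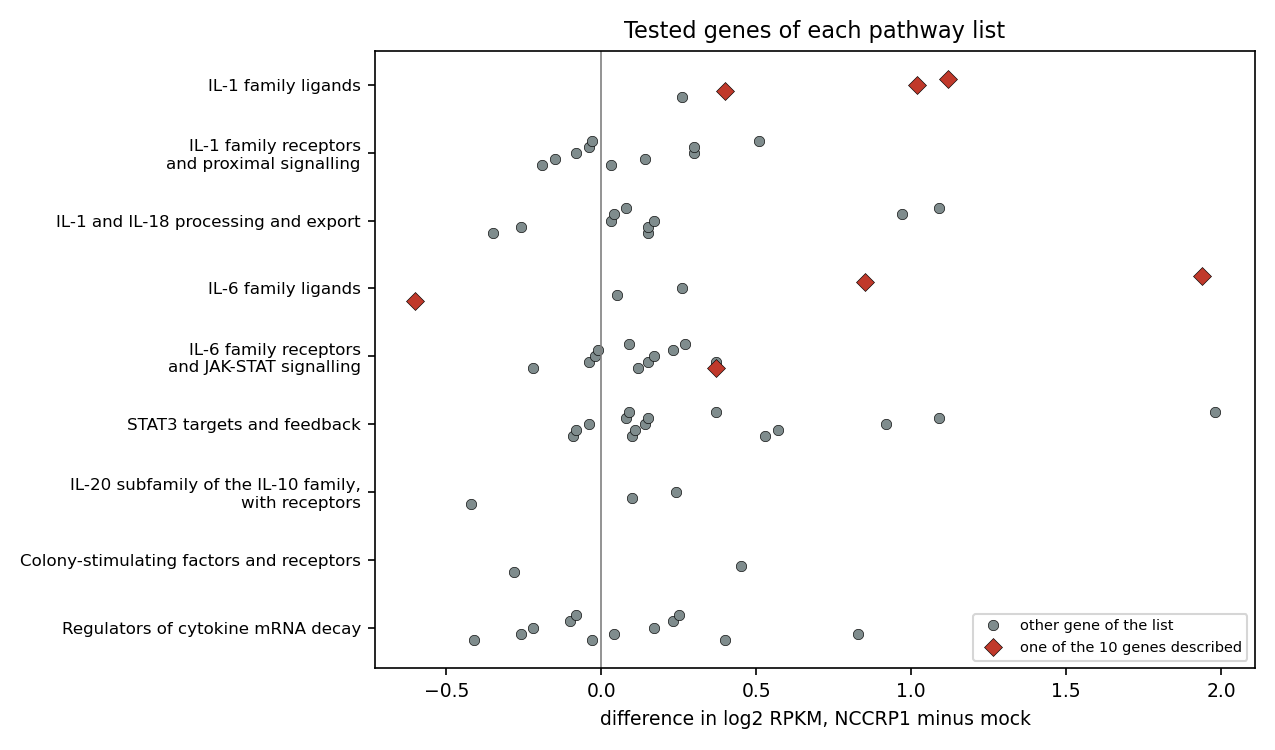
Difference in log2 RPKM, NCCRP1 minus mock (horizontal axis), of every tested gene in the 9 pathway lists (rows), with the 10-gene set in red and other genes in grey. IL6 at 1.94 and SERPINA3 at 1.98 lie furthest right, and IL11 at -0.6 furthest left.

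Messenger RNAs of many cytokines are short-lived because AU-rich elements in their 3′ UTRs recruit decay proteins, so the pentamer ATTTA was counted in the longest annotated 3′ UTR of each gene (GENCODE v29). The densest stretches of 30 bases are printed for IL6, IL1B, IL11 and CSF2, with the pentamers in capitals, because these genes ranged from the clearest difference to a listed 0.
IL6: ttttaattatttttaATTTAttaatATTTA
IL1B: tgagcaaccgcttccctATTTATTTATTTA
IL11: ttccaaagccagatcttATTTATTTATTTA
CSF2: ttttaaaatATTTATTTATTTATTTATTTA
IL6 had 6 pentamers in 429 bases (14 per kb), IL1B 6 in 610 bases (9.84 per kb), IL11 9 in 1618 bases (5.56 per kb) and CSF2 8 in 318 bases (25.2 per kb). The median over 18186 genes was 1.59 per kb, and 0.335%, 1.04%, 6.85% and 0.033% of genes were at least as dense as IL6, IL1B, IL11 and CSF2. IL1A had 4.34 per kb, IL6ST 3.4, IL24 2.6, LIF 2.18 and IL36G 1.62, and IL1RN had no pentamer. The density of IL11, the gene with a lower mean in NCCRP1 clones, lay between those of IL1B and IL1A, which had higher means. A relation between pentamer density and the differences was not tested.

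All 12 regulators of cytokine mRNA decay were tested, 6 with a higher and 6 with a lower mean. ZC3H12A encodes regnase-1, an endonuclease that degrades IL6 mRNA and is itself induced by NF-kB, and was at 5.39, 5.39 and 5.45 in NCCRP1 and 4.46, 5.1 and 4.18 in mock clones (difference 0.83, SE 0.21, limma adjusted p = 0.268). KHSRP, which encodes a decay factor for AU-rich mRNAs, was at 5.85, 6.05 and 5.81 in NCCRP1 and 6.36, 6.29 and 6.31 in mock clones (difference -0.41, SE 0.14, limma adjusted p = 0.462). Of the 12 genes 1 higher (ZC3H12A) and 2 lower (KHSRP and HNRNPD, the last named after its value was seen) were without overlap. ZC3H12C, a relative of ZC3H12A, had a difference of 0.4 (limma adjusted p = 0.764).

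The genes most like IL6 were taken as the 5 with the smallest Euclidean distance between log2 levels centred on each gene's mean over the 6 libraries. They were GARIN4 (distance 0.63), the complement protease gene C1S (0.64), the stress-response gene GADD45B (0.73), the cytokine gene IL32 (0.95) and the TNF-induced gene TNFAIP2 (0.96), against 1.37 for LIF and 1.4 for IL1B. C1S was at 3.85, 4.12 and 4.33 in NCCRP1 clones 1, 6 and 17 and 2.36, 3.25 and 2.19 in mock clones 1, 4 and 5. IL32 was at 6.38, 6.94 and 6.28 in NCCRP1 and 5.3, 5.99 and 4.08 in mock clones. For all 5, as for IL6, mock clone 4 was the highest mock clone. The 5 had differences of 1.68, 1.5, 1.59, 1.41 and 1.4 in the order named, and GADD45B alone of them passed (limma adjusted p = 0.0154). They were selected for their likeness to IL6 over these same libraries, so neither their differences nor their high level in mock clone 4 adds evidence of its own.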

How the data were processed

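RNA of 6 KYSE150 clones was sequenced on the Ion Torrent platform, per the labels' protocols. The submitters' processing notes name hg19 and bedtools 2.25.0, while the aligner is not given in the sources used here. The authors deposited 1 column headed RPKM per library, and its values behave as log2 RPKM. Raised from base 2, multiplied by transcript length and summed, they gave 1130000 to 1150000 per library, against at least 11500000 from base e. None was below 0. A listed 0 can also be a missing estimate, since the ubiquitous genes TPT1 and UBB had it throughout. Symbols of 37997 of 40448 IDs came from RefSeq (GRCh38.p14).

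Depth was the value between 10000000 and 20000000 reads that put most low microRNA values (under 8 steps) within 0.005 of whole reads, 23.4% to 33.1% of them per library. Whole multiples of it, which would also turn whole reads into whole reads, lay outside this range and were not tried. Too few values were whole for a count model, so read numbers are approximate.

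Genes above 0 in at least 3 libraries (12737) were fitted with limma 3.58.1 in R 4.3.3 (trended, robust, group as sole term, two-sided, Benjamini-Hochberg adjustment over all of them), without a pseudocount. The fit was tested on simulated data. The members, lists and tests were chosen with earlier results of these data known. From each list up to 3 tested genes outside the 10 with the lowest p were named, of which some are not reported here, with others named for being listed at 0 or where so stated.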

Additional observations from a re-analysis of the deposited data

How the results depend on the processing

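No member changed direction under any of 111 alternative values, and 1 changed its side of the threshold (IL6 without mock clone 4). The number of members that passed was 0 with every other pseudocount, filter, scaling and term, and 0 to 1 with each clone left out. Over all genes 13 passed, against 4 with log2(RPKM + 1), 1 with log2(RPKM + 0.1), 3 with no filter, 7 above 0 in all 6 libraries, 2 with a listed 0 as missing, 5 with robust=FALSE and 2 with the sequencing run as a term. It was 5 without mock clone 1, 16 without mock clone 4, 0 without mock clone 5 (limma, with 1363 genes at an unadjusted p under 0.05), 29 without NCCRP1 clone 1, 6 without NCCRP1 clone 6 and 2 without NCCRP1 clone 17; the cause was not tested. The members without overlap numbered 3 of 7 (12.8% of all tested genes, 5.71% higher), and 3 to 5 with a clone left out. They were 5 without mock clone 4 (19.5% of all, 9.18% higher) and 5 without NCCRP1 clone 1 (23.2%, 11.8% higher). Without NCCRP1 clone 17 they were 4 (23.3%, 9.56% higher). There were 3 without mock clone 1 (19.7%, 8.18% higher) and 3 without NCCRP1 clone 6 (20.4%, 9.13% higher). All of these were higher in NCCRP1 clones, except 1 of the 4 without mock clone 5 (29.8% of all, 15.7% higher and 14.2% lower). Each count includes IL1RN, which passed the filter on low values mainly through the NCCRP1 clones. The members without overlap numbered 6 within run 14, all higher, and 5 within run 15, 4 higher and 1 lower. In these runs 72.7% and 74.8% of all tested genes did not overlap either. The median difference of the 7 tested members was 0.85, and it was 0.78 within run 14 and 0.27 within run 15. The value in run 15 is that of IL1RN, which was near the 1 RPKM floor. The IL6 exact permutation p was 0.1 in each setting for which it was computed. That is the smallest these designs of 3 against 3 or 2 against 3 allow for this value. With all clones kept, IL6's limma adjusted p ran from 0.0687 to 0.18 over the other settings, and IL1RN's difference from 0.35 with a listed 0 as missing to 2.68 with log2(RPKM + 0.1).

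No paired analysis was possible because the groups share 1 clone number alone, and that number names separately transfected clones. By the approximate depth, IL1RN (from 25 reads), IL1A (from 29) and IL11 (from 50) had the lowest read numbers of the tested members.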
